A study of Mus musculus with 9 samples.

Results

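The genes described here are 10 members of the hepcidin and iron handling system in mouse liver: Hamp, Hamp2, Hfe, Tfrc, Tfr2, Trf, Slc40a1, Bmp6, Fth1 and Ftl1. They were taken by symbol, and a gene was kept if its value was above 0 in at least 1 liver; all 10 met this, of 23183 gene symbols in the tables, 16889 of which were above 0 in at least 1 liver. RNA-seq was performed on livers from 9 male C57BL/6J mice, 3 in each of 3 groups, with 1 library per mouse and an age of 100 days in every label. The ND group received a normal diet with 14% fat, and the HFD group a high-fat diet with 60% fat, for 10 weeks. The PRF 50 group received the same high-fat diet for 10 weeks and, during the last 5 weeks, an oral dose of 50 mg/kg/day of PRF, a polymethoxyflavone-rich fraction of Citrus sunki leaf. The comparisons ask how the high-fat diet and PRF were each associated with liver gene expression in diet-induced obese mice. Each group held only 3 mice, so p-values rest on the spread among few animals, and the 3 comparisons share groups, so their values are given side by side and are not independent of each other.

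Iron balance is set by hepcidin, a peptide hormone that hepatocytes make from Hamp and that binds ferroportin, the iron exporter encoded by Slc40a1, and leads to its degradation. Hepatocytes raise Hamp transcription when BMP ligands from sinusoidal endothelial cells act through BMP receptors, the co-receptor hemojuvelin and SMAD proteins, with Hfe and Tfr2 as further inputs that respond to transferrin iron, and when interleukin 6 acts through STAT3 in inflammation. Within a cell, iron regulatory proteins bind short hairpins called iron-responsive elements: at the start of ferritin and ferroportin mRNAs they hold back translation, and in the Tfrc mRNA tail they protect the transcript from decay.

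The deposited values are log2(FPKM + 1), where FPKM is fragments counted per length of transcript and scaled by sequencing depth, so that levels of different genes can be compared per length. The tables give no read totals. From the spacing of the lowest values, the relative depth of the libraries was 0.962 to 1.59 times that of HFD mouse 1, with HFD mouse 3 and PRF 50 mouse 9 the deepest at 1.59 and 1.51, although no more than 23.3% of low genes sat at the ratio of any other library. Between 14372 and 14980 genes were above 0 in a liver. Pearson's r across all genes, those at 0 included, was 0.984 to 0.993 over the 36 pairs of libraries. No pair held an identical value above 0 for any gene. HFD mouse 2 had one value far above all others, 22.44 for the small nuclear RNA Rnu6, while Apoa2, Mup20 or Snord49a was highest in the other livers, at 14.10 to 14.64. The tissue label was checked against 10 hepatocyte genes: Apoa1 led at 6616 to 11595 FPKM, whereas Alb, the albumin gene, was listed at 0 in all 9 livers, so an exact 0 in these tables need not mean that a transcript is absent.

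The members spanned a wide range of levels. Over the 9 livers, mean FPKM was highest for Trf at 4989, the gene of the plasma iron carrier transferrin, followed by Ftl1 at 4072, Hamp at 2731 and Fth1 at 1772. The ranges of these 4 genes overlapped from neighbour to neighbour in that order, and Hamp alone ran from 294 to 7447 FPKM. Hamp2 followed at 581, then Tfr2 at 84.5, Slc40a1 at 50.2 and Hfe at 21.2. Hamp2, at 82.0 to 2930 FPKM, overlapped Tfr2, at 67.1 to 104 FPKM, which in turn overlapped Slc40a1, at 35.5 to 70.9 FPKM. Tfrc, at 1.86 to 6.21 FPKM, and Bmp6, at 0.467 to 1.66 FPKM, were lowest and did not overlap each other or Hfe. The distance between the lowest and highest liver was 5.14 on the log2 scale for Hamp2 and 4.66 for Hamp, against 0.30 for Hfe, the member with the narrowest range. An average of 1 FPKM or more over the 6 mice of a comparison was required for testing, and 9 of the 10 members met it in every comparison; Bmp6 did not.

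**Figure D1:**
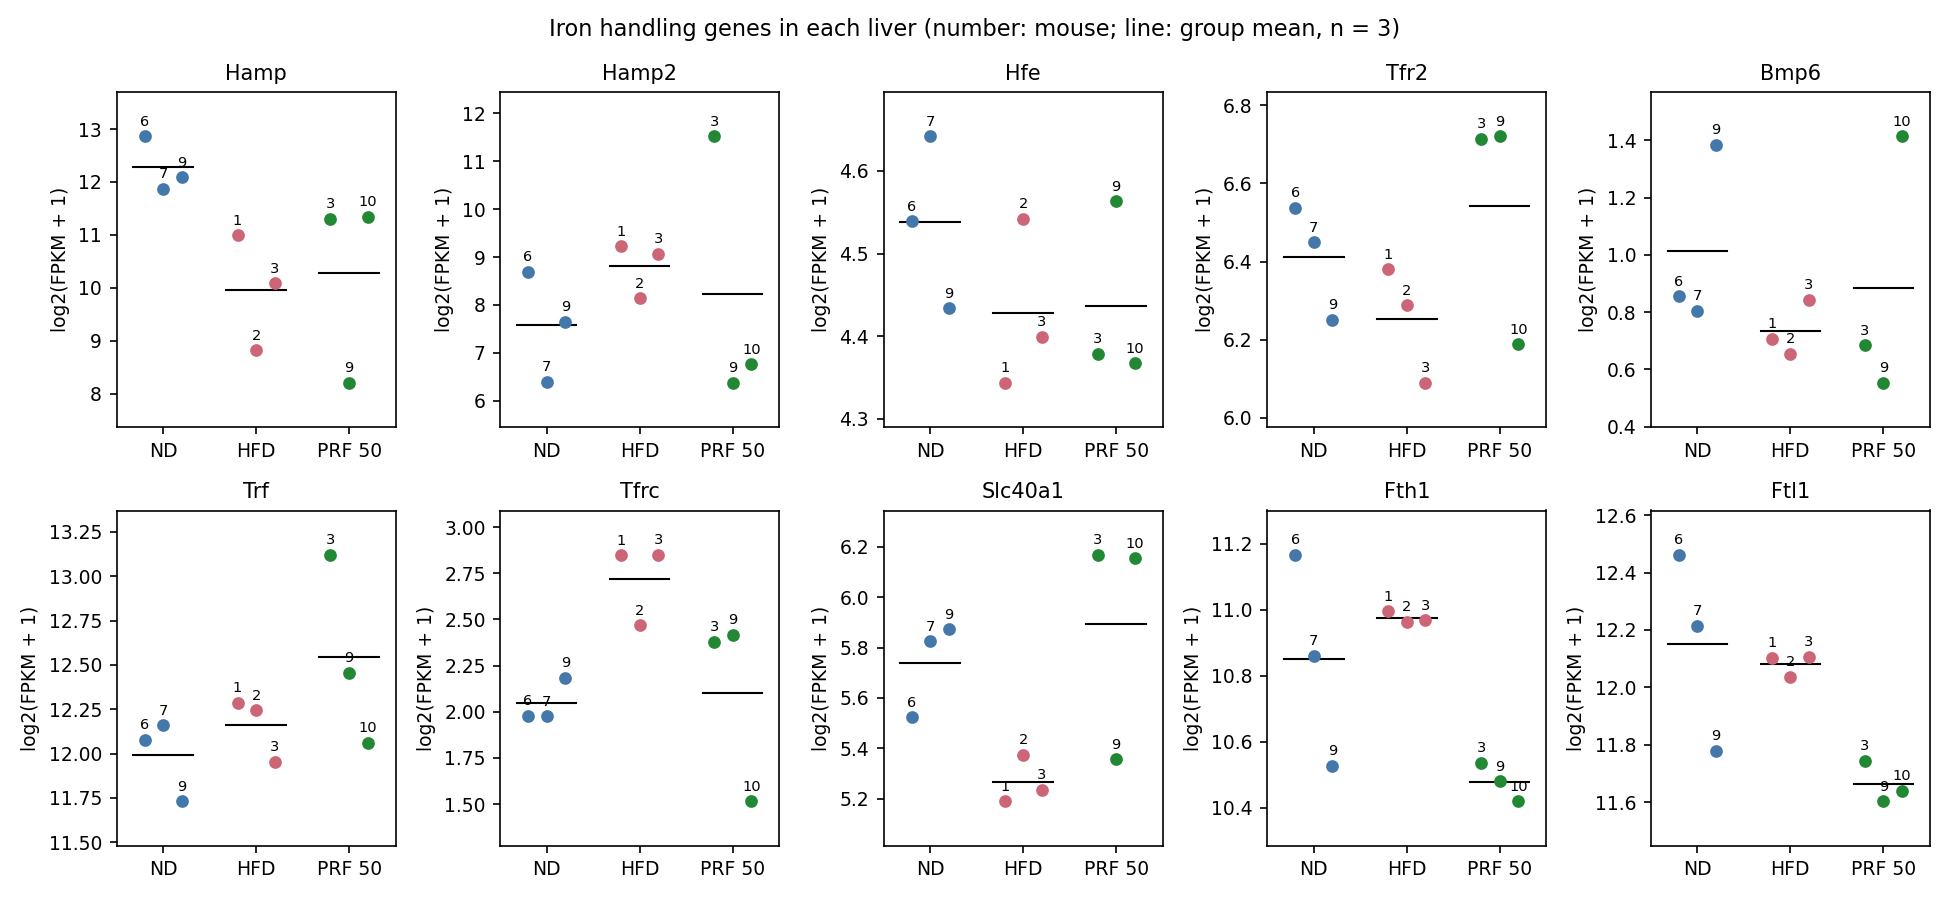
Level of each of the 10 genes as log2(FPKM + 1) in each liver, with 1 point per mouse labelled by its number, grouped as ND, HFD and PRF 50, and a line at the mean of 3 mice. Hamp is 11.87 or more in the 3 ND livers and 11.34 or less in the 6 others, and Hamp2 reaches 11.52 in PRF 50 mouse 3.

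Hamp and Hamp2 are neighbours on mouse chromosome 7 and are both read from the minus strand. In the GRCm38 annotation Hamp lies at chr7:30942368-30944032 and Hamp2 at chr7:30922372-30924681, with 17686 bases between them. Because the genes are a duplicated pair, the 150 bases before the RefSeq start of each are shown. On GRCm38.p6 they lie at chr7:30944030-30944179 for Hamp and chr7:30924182-30924331 for Hamp2. The RefSeq start of Hamp2, base 30924181, is also that of 2 of its 3 GENCODE transcripts; the other begins 500 bases further upstream, so that the window lies in an intron of it. For Hamp the GENCODE start lies 3 bases upstream of that of RefSeq. The first capitals mark the BMP-responsive element core GGCGCC of Hamp and the letters aligned to it in Hamp2, and the later capitals mark a STAT-type match to TTCNNNGAA.
Hamp: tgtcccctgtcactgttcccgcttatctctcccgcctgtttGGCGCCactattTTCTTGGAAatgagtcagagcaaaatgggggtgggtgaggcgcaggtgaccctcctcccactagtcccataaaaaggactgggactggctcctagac
Hamp2: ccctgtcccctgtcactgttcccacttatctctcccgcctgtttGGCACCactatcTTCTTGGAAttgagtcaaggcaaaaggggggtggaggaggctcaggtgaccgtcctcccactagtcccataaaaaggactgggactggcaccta
The 300-base promoter windows of the pair had 276 of 297 aligned bases in common, or 92.9%. GGCGCC began 109 bases before the Hamp start. Counted from 1 at the first base of GGCGCC in Hamp, the aligned letters of Hamp2 carry the substitution G4A, and GGCACC began 106 bases before the Hamp2 start. TTCNNNGAA began 97 bases before the Hamp start and 94 bases before the Hamp2 start. Both strands were searched, and each motif reads as its own reverse complement. Among 32851 promoter windows of the same length, 11.9% held GGCGCC and 8.30% held TTCNNNGAA. Promoter windows were found for 8 members, in 12 entries, and not for Trf and Slc40a1; GGCGCC was also present in a Tfrc window, 89 bases before the start. These matches describe the letters only.

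Hamp, the hepcidin gene, was lower in the high-fat diet livers. Its log2(FPKM + 1) values were 12.86, 11.87 and 12.10 in ND mice 6, 7 and 9, 11.00, 8.82 and 10.08 in HFD mice 1, 2 and 3, and 11.31, 8.20 and 11.34 in PRF 50 mice 3, 9 and 10. Every HFD and every PRF 50 liver lay below every ND liver, while HFD and PRF 50 overlapped, with HFD mouse 2 and PRF 50 mouse 9 lowest. The group means were 12.28 ± 0.52 in ND, 9.97 ± 1.10 in HFD and 10.29 ± 1.80 in PRF 50 (SD, n = 3). In HFD compared with ND the log2 fold change was -2.31 with an SE of 0.52, a level 4.96-fold lower, and the limma adjusted p was 0.094, so the difference did not pass the adjusted threshold of 0.05; the unadjusted p was 0.0021. PRF 50 compared with ND gave -1.99 with an SE of 0.79, and the limma adjusted p was 0.36; with each mouse left out the value ran from -2.52 without PRF 50 mouse 10 to -0.95 without PRF 50 mouse 9. The PRF 50 and HFD livers differed by 0.32 with an SE of 0.91 and a 95% confidence interval of -1.80 to 2.44, which holds both a lower and a higher level, and the limma adjusted p was 0.88. This last value was 1.36 without PRF 50 mouse 9 and turned negative without HFD mouse 2 (-0.25), without PRF 50 mouse 3 (-0.19) or without PRF 50 mouse 10 (-0.21), and the HFD against ND difference passed the adjusted threshold without HFD mouse 1, at -2.83 with a limma adjusted p of 0.035, over a range of 0.035 to 0.26 across 14 alternatives. The HFD against ND difference was smallest without HFD mouse 2, at -1.74, among the fits with 1 mouse left out.

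Hamp2, the duplicated hepcidin gene of the mouse, had a higher mean in HFD than in ND, where Hamp had a lower one. Its values were 8.69, 6.40 and 7.65 in ND mice 6, 7 and 9, 9.22, 8.14 and 9.07 in HFD mice 1, 2 and 3, and 11.52, 6.38 and 6.77 in PRF 50 mice 3, 9 and 10. All 3 groups overlapped, and PRF 50 mouse 3 was the highest of the 9 livers, ahead of HFD mouse 1. Within ND and within HFD the livers stood in the same order for Hamp2 as for Hamp, and PRF 50 mouse 9 was the lowest of the 9 for both genes. The log2 fold change was 1.23 with an SE of 0.54 in HFD compared with ND, where the limma adjusted p was 0.34, and it was 0.64 without ND mouse 7. It was -0.59 with an SE of 1.25 in PRF 50 compared with HFD and 0.64 with an SE of 1.28 in PRF 50 compared with ND, with limma adjusted p of 0.84 and 0.86. On the FPKM scale the direction between PRF 50 and HFD turned: mean Hamp2 was 232 ± 167 FPKM in ND, 471 ± 167 in HFD and 1040 ± 1637 in PRF 50 (SD, n = 3), with 2930 FPKM in PRF 50 mouse 3. The PRF 50 values rest on single livers: against HFD the log2 fold change was 0.33 without PRF 50 mouse 9, 0.14 without PRF 50 mouse 10 and -2.24 without PRF 50 mouse 3, and against ND it was 1.56 without PRF 50 mouse 9 and -1.01 without PRF 50 mouse 3.

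The share of Hamp2 in the summed FPKM of both hepcidin genes shows how the pair was balanced in each liver. It was 5.25%, 2.18% and 4.36% in ND mice 6, 7 and 9, 22.6%, 38.4% and 33.1% in HFD mice 1, 2 and 3, and 53.6%, 21.8% and 3.99% in PRF 50 mice 3, 9 and 10. The 3 HFD livers lay above the 3 ND livers, and the PRF 50 livers ran from within the ND range to above the HFD range; this share was not tested. When both genes were summed as 1 row of the fit, the log2 fold change was -1.82 with an SE of 0.47 in HFD compared with ND and the limma adjusted p was 0.13. The sum gave 0.28 with an SE of 0.95 in PRF 50 compared with HFD and -1.54 with an SE of 0.87 in PRF 50 compared with ND, with limma adjusted p of 0.91 and 0.50. The transcripts of Hamp and Hamp2 shared no unchanged 100-base window with each other or with another gene's transcript. Windows that differ by a few bases were not searched, so this does not show how reads were divided between the pair.

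As a description, the genes whose values ran most like Hamp over the 9 livers, among 10048 genes that averaged 1 FPKM or more, were Amd2 (r = 0.960), Dkc1 (0.955), Smad7 (0.955), Cnot3 (0.945) and Mak16 (0.937), by Pearson's r. Hamp2 had an r of 0.18 with Hamp over the pooled livers and was number 3980 in that order, although both genes put the livers in the same order within ND and within HFD. The genes most like Hamp2 were Arhgap6 (r = 0.940), Gm1943 (0.903), Mcur1 (0.903), Vnn3 (0.896) and Srebf1 (0.892). The livers come from 3 groups whose means differ, and each gene was picked as the highest of many, so these values are not tests; PRF 50 mouse 3 was the highest of the 9 livers for Hamp2 and for each of those 5 genes.

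Hfe and Tfr2, the membrane proteins through which hepatocytes respond to transferrin iron, had no difference that passed the adjusted threshold. Hfe, at chr13:23702034-23710854, ranged from 4.34 to 4.64 over the 9 livers, and its log2 fold changes were -0.11 in HFD compared with ND, 0.01 in PRF 50 compared with HFD and -0.10 in PRF 50 compared with ND. The confidence intervals of these differences lay within -0.35 and 0.23. Leaving out 1 mouse moved Hfe in HFD compared with ND between -0.167 and -0.058. In PRF 50 compared with ND it moved between -0.165 and -0.050. The value of Hfe in PRF 50 compared with HFD took the opposite sign without HFD mouse 1 (-0.034), without HFD mouse 3 (-0.0064) or without PRF 50 mouse 9 (-0.055). Tfr2, at chr5:137569840-137587481, was 6.54, 6.45 and 6.25 in ND mice 6, 7 and 9, 6.38, 6.29 and 6.09 in HFD mice 1, 2 and 3, and 6.71, 6.72 and 6.19 in PRF 50 mice 3, 9 and 10. Its groups overlapped in every comparison, and its log2 fold changes of -0.16, 0.29 and 0.13 in the same order had limma adjusted p of 0.60, 0.38 and 0.78. With each mouse left out these Tfr2 values ran from -0.24 to -0.079, from 0.20 to 0.47 and from 0.0385 to 0.30, the last 2 lowest without PRF 50 mouse 9 and highest without PRF 50 mouse 10.

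Bmp6, the BMP ligand that signals iron load from endothelial cells to hepatocytes, was the lowest member. At chr13:38345107-38500302 on the plus strand, its values were 0.86, 0.80 and 1.38 in ND mice 6, 7 and 9, 0.71, 0.65 and 0.84 in HFD mice 1, 2 and 3, and 0.68, 0.55 and 1.41 in PRF 50 mice 3, 9 and 10. ND mouse 9 and PRF 50 mouse 10 stood above the rest. The differences of the means, -0.28 in HFD compared with ND, 0.15 in PRF 50 compared with HFD and -0.13 in PRF 50 compared with ND, did not enter the main test; with no minimum level their limma adjusted p was 0.58, 0.80 and 0.87. Single livers turned the sign, to -0.12 in PRF 50 compared with HFD without PRF 50 mouse 10, and to 0.034 without PRF 50 mouse 9 and 0.0535 without ND mouse 9 in PRF 50 compared with ND, and HFD compared with ND was -0.095 without ND mouse 9. The log2(FPKM + 1) scale understates fold changes of genes this low. Of its 100-base transcript windows 3.58% also occur in Txndc5. The 10 sinusoidal endothelial markers are given beside it because those cells are its known source: their summed FPKM was 67.7, 87.9 and 114 in ND mice 6, 7 and 9, 25.9, 60.6 and 85.1 in HFD mice 1, 2 and 3, and 67.5, 63.5 and 108 in PRF 50 mice 3, 9 and 10. Clec4g, a sinusoidal lectin, was the most abundant marker in all 9 livers, and no marker was at 0. The same ND mouse 9 and PRF 50 mouse 10 were the highest of their groups in this sum; its part in the Bmp6 values was not tested. In whole liver RNA, fewer cells of a type and less RNA per cell cannot be told apart.

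Tfrc, Slc40a1, Fth1 and Ftl1 are the 4 members in which iron-responsive elements were found, and the elements are shown because they are where iron acts on these mRNAs. They were searched as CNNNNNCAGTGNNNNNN on the transcript strand with 5 of 5 bases after the first C able to pair with the last 5 bases, and the capitals mark the loop. In Tfrc all 4 lie in exon 19, in the 3′ UTR, at chr16:32631225-32631241, chr16:32631604-32631620, chr16:32631669-32631685 and chr16:32631716-32631732 on the plus strand of GRCm38. In Slc40a1 the element is in the 5′ UTR in exon 1 at chr1:45925471-45925487 on the minus strand, in Fth1 in the 5′ UTR in exon 2 of the annotated transcript at chr19:9982738-9982754 on the plus strand, and in Ftl1 in the 5′ UTR in exon 1 at chr7:45459785-45459801 on the minus strand.
Tfrc a: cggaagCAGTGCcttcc
Tfrc b: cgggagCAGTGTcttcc
Tfrc c: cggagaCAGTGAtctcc
Tfrc d: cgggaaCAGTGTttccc
Slc40a1: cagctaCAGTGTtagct
Fth1: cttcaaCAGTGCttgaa
Ftl1: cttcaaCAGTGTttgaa
Of 21901 genes with a protein-coding transcript, 294 held such an element, or 1.34%. The demand of 5 paired bases was made after the members' elements had been seen; with at least 4 of 5 paired, as first searched, 2341 genes or 10.7% held one, and the same 4 members did. The search marks letters and pairing only and says nothing about binding of an iron regulatory protein.

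Tfrc, the transferrin receptor that takes up transferrin-bound iron, was highest in the HFD livers. Its values were 1.98, 1.98 and 2.18 in ND mice 6, 7 and 9, 2.85, 2.47 and 2.85 in HFD mice 1, 2 and 3, and 2.38, 2.42 and 1.51 in PRF 50 mice 3, 9 and 10. Every HFD liver lay above every ND liver and above every PRF 50 liver, though HFD mouse 2 at 2.47 was only just above PRF 50 mouse 9 at 2.42. In HFD compared with ND the log2 fold change was 0.67 with an SE of 0.14, and the limma adjusted p was 0.072. For PRF 50 and HFD it was -0.62 with an SE of 0.25 and a limma adjusted p of 0.22, or -0.32 without PRF 50 mouse 10, and in PRF 50 compared with ND it was 0.06 with an SE of 0.24. None of these passed the adjusted threshold. The sign of the last turned without PRF 50 mouse 3 (-0.08) or PRF 50 mouse 9 (-0.10).

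Slc40a1, the ferroportin gene, had its lowest mean in the HFD livers. Its values were 5.52, 5.82 and 5.87 in ND mice 6, 7 and 9, 5.19, 5.37 and 5.24 in HFD mice 1, 2 and 3, and 6.17, 5.36 and 6.16 in PRF 50 mice 3, 9 and 10. The HFD livers lay below all ND livers, and PRF 50 mouse 9 lay inside the HFD range while PRF 50 mice 3 and 10 were the highest of all 9. The log2 fold change in HFD compared with ND was -0.47 with an SE of 0.12, and the limma adjusted p was 0.14. It was 0.63 with an SE of 0.22 in PRF 50 compared with HFD, and the limma adjusted p was 0.16. Without PRF 50 mouse 9 the latter was 0.90 and passed, with a limma adjusted p of 0.020 in a range of 0.020 to 0.35 over 13 alternatives. Compared with ND the PRF 50 livers differed by 0.15 with an SE of 0.23, by 0.016 without PRF 50 mouse 3 and by 0.42 without PRF 50 mouse 9.

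Fth1 and Ftl1, the heavy and light chains of ferritin, the iron storage shell, both had their lowest mean in the PRF 50 livers. Fth1 was 11.17, 10.86 and 10.53 in ND mice 6, 7 and 9, 11.00, 10.96 and 10.97 in HFD mice 1, 2 and 3, and 10.54, 10.48 and 10.42 in PRF 50 mice 3, 9 and 10. Ftl1 was 12.46, 12.21 and 11.78 in the same ND mice, 12.10, 12.04 and 12.11 in the HFD mice and 11.74, 11.60 and 11.64 in the PRF 50 mice. For both chains the 3 PRF 50 livers lay below the 3 HFD livers, with an SD of only 0.02 for Fth1 and 0.04 for Ftl1 among HFD mice, and ND mouse 9 was the lowest of its group. The log2 fold change of Fth1 in PRF 50 compared with HFD was -0.50 with an SE of 0.12, and the limma adjusted p was 0.075. That of Ftl1 was -0.42 with an SE of 0.14, and the limma adjusted p was 0.16. Neither passed the threshold, but Fth1 did with a minimum of 10 FPKM and both did in limma without a mean-variance trend, with adjusted p of 0.042 for the former and 0.030 and 0.047 for the latter, in ranges of 0.030 to 0.22 for Fth1 and 0.047 to 0.45 for Ftl1 over 13 alternatives each. In HFD compared with ND the values were 0.12 for Fth1 and -0.07 for Ftl1, each smaller than its SE, and both signs turned, Fth1 to -0.037 without ND mouse 9 and Ftl1 to 0.085 without ND mouse 6 and 0.0072 with quantile normalization. Against ND the PRF 50 values were -0.37 and -0.49, with limma adjusted p of 0.47 and 0.40; without ND mouse 6 they were -0.21 and -0.33. Of the 100-base windows of the Ftl1 transcript, 78.6% also occur in transcripts of 6 other genes, with Ftl1-ps1 the first of them, so the Ftl1 values are uncertain as far as reads were divided among those copies; for Fth1 the share was 0.574%.

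Trf, which encodes the plasma iron carrier, was 12.08, 12.16 and 11.73 in ND mice 6, 7 and 9, 12.29, 12.24 and 11.95 in HFD mice 1, 2 and 3, and 13.12, 12.46 and 12.06 in PRF 50 mice 3, 9 and 10. PRF 50 mouse 3 was highest, and the groups overlapped in every comparison. The log2 fold changes were 0.17 in HFD compared with ND, 0.38 in PRF 50 compared with HFD and 0.56 in PRF 50 compared with ND, with limma adjusted p of 0.74, 0.51 and 0.47. The Trf value fell to 0.043 in the first without ND mouse 9, and to 0.097 and 0.27 in the others without PRF 50 mouse 3. Of the Trf transcript's 100-base windows, 77.3% also occur in Gm20425, a gene model that overlaps it in sequence, so this value too depends on how reads were assigned.

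**Figure D2:**
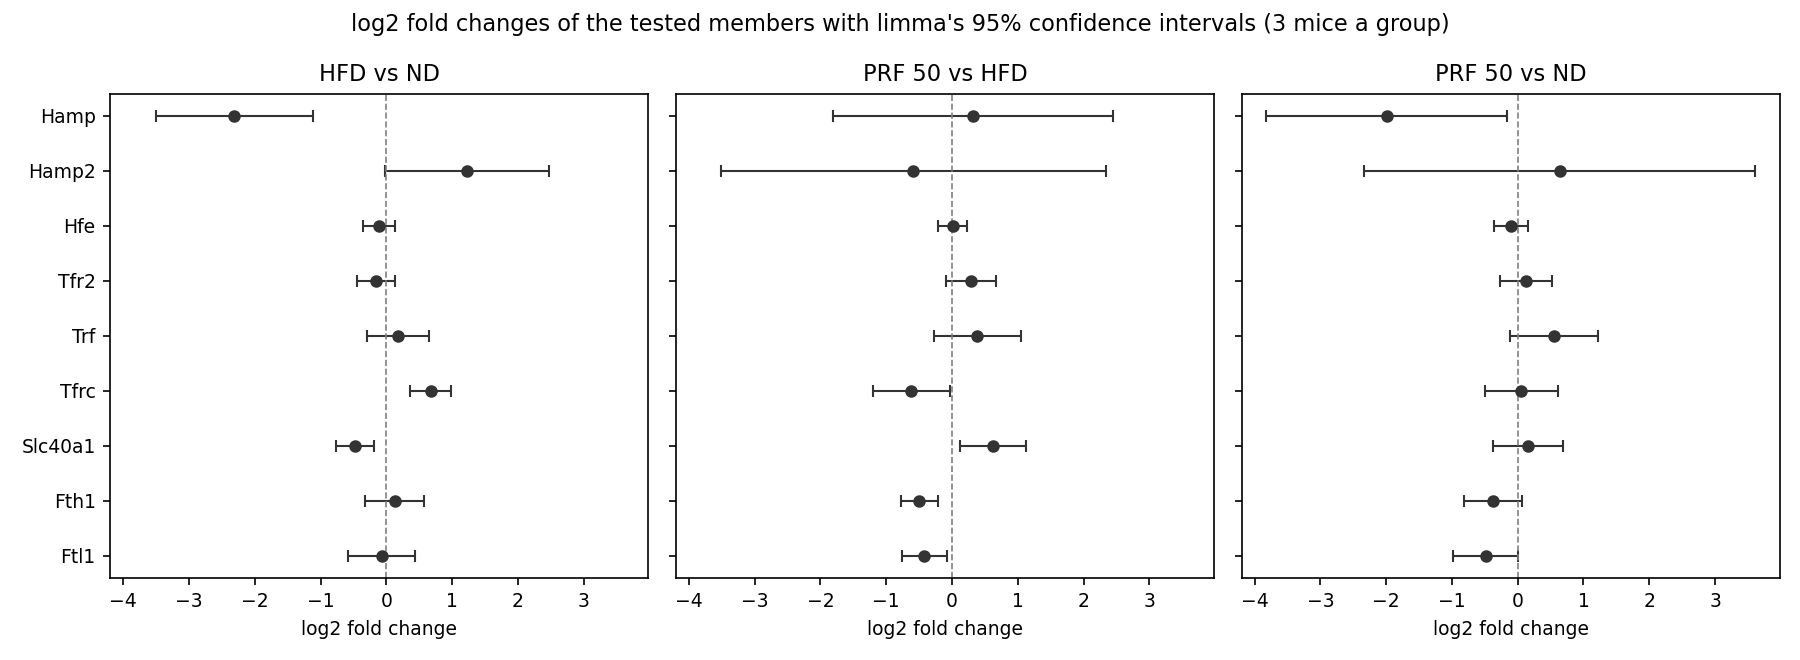
Log2 fold change of the 9 tested genes in HFD compared with ND, PRF 50 compared with HFD and PRF 50 compared with ND, with points for the estimate and bars for the 95% confidence interval from limma, 3 mice in each group. The interval of Hamp lies wholly below 0 in HFD compared with ND and spans -1.80 to 2.44 in PRF 50 compared with HFD, and those of Fth1 and Ftl1 lie wholly below 0 in PRF 50 compared with HFD.

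Counted together in HFD compared with ND, 0 of the 9 tested members passed an adjusted p under 0.05 in limma, where 133 of all 9978 genes tested did (1.33%), 70 of them higher (0.702%) and 63 lower (0.631%). At an unadjusted p under 0.05 there were 3 members, Hamp, Tfrc and Slc40a1, where 15.1% of all genes had such a p. A change of more than 2-fold at such a p was found for 1 member, Hamp, beside 134 genes or 1.34%. The groups did not overlap for 3 members, the same Hamp, Tfrc and Slc40a1, against 20.7% of genes tested. The count of 133 genes was 41 without HFD mouse 2, 35 without HFD mouse 3, 63 without ND mouse 6 and 39 without ND mouse 7, where more were lower (22) than higher (17).

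Between PRF 50 and HFD, 0 of the 9 members passed in limma at an adjusted p under 0.05, where 362 of 10084 genes did (3.59%), 144 higher (1.43%) and 218 lower (2.16%). An unadjusted p under 0.05 was found for 4 members, Slc40a1 with a higher and Tfrc, Fth1 and Ftl1 with a lower level, against 20.2% of all genes tested. The count of 4 was 2 without HFD mouse 1, 1 without HFD mouse 3 and 2 without PRF 50 mouse 10. None of the 9 had a change of more than 2-fold at such a p in limma, where 212 genes or 2.10% did. The groups did not overlap for 3 members, Tfrc, Fth1 and Ftl1, against 26.2%. The count of 362 genes was 215 without HFD mouse 1, 31 without HFD mouse 2, 15 without HFD mouse 3, 40 without PRF 50 mouse 3 and 168 without PRF 50 mouse 10, with 84 in each direction in the last.

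Between PRF 50 and ND, 0 of the 9 members passed in limma at an adjusted p under 0.05, where 46 of 10051 genes did (0.458%), 16 higher (0.159%) and 30 lower (0.298%). Hamp was the 1 member with an unadjusted p under 0.05, against 12.5% of genes tested, and the 1 member that also had a fold change above 2, beside 177 genes or 1.76%. The count at an unadjusted p under 0.05 was 0 without ND mouse 6 or 7, 2 without ND mouse 9 or PRF 50 mouse 9 and 3 without PRF 50 mouse 10. The groups did not overlap for 2 members, Hamp and Ftl1, against 19.9%. The count of 46 genes was 17 without ND mouse 6, 4 without ND mouse 7, 8 without PRF 50 mouse 3, 26 without PRF 50 mouse 9 and 71 without PRF 50 mouse 10. The balance of directions moved as well, to 39 higher and 32 lower without PRF 50 mouse 10 and 53 higher and 54 lower with all 9 mice in 1 fit. The median log2 fold change of the 9 members was -0.07 in HFD compared with ND, 0.01 in PRF 50 compared with HFD and 0.06 here, beside -0.0091, -0.015 and -0.031 over all genes tested, the values to set beside the medians of the lists that follow. An unadjusted p under 0.05 was found for 15.1%, 20.2% and 12.5% of all genes tested in that order, the shares to set beside the lists' counts at such a p. For an adjusted p under 0.05 in limma these shares were 1.33%, 3.59% and 0.458%, and for a change of more than 2-fold at an unadjusted p under 0.05 they were 1.34%, 2.10% and 1.76%.

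Genes of the BMP-SMAD arm were looked at next, since this arm acts on Hamp. The list mixes genes that raise and genes that restrain its signal, such as the inhibitory Smad7. Its counts and medians therefore do not give a direction for the signal. Of 23 listed genes 18 were tested. In HFD compared with ND limma called 1 higher and 1 lower. Hfe2, which encodes the co-receptor hemojuvelin, was 4.66, 4.60 and 4.58 in ND mice 6, 7 and 9, 5.07, 5.21 and 5.11 in HFD mice 1, 2 and 3, and 4.80, 4.85 and 4.82 in PRF 50 mice 3, 9 and 10. It rose in HFD compared with ND, with a log2 fold change of 0.52, an SE of 0.09 and a limma adjusted p of 0.044. Smad9, a receptor-activated SMAD, was 2.43, 1.91 and 2.64 in the ND mice, 1.10, 1.21 and 1.06 in the HFD mice and 1.20, 1.34 and 2.10 in the PRF 50 mice, in the same order. It fell by 1.21 on the log2 scale with an SE of 0.19 and a limma adjusted p of 0.028. The Hfe2 call was lost when any 1 of the 6 mice was left out, with no minimum level and without a mean-variance trend, with an adjusted p of up to 0.22, and the Smad9 call when any mouse but ND mouse 7 was left out and with no minimum level, with an adjusted p of up to 0.11.

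Other genes of this arm did not pass an adjusted p under 0.05. At an unadjusted p under 0.05 in HFD compared with ND, 7 of the 18 were lower, Bmp2, Acvr1, Smad1, Smad9, Smad7, Id1 and Spint2, and 1 higher, Hfe2, beside 15.1% of all genes tested, and the list's median was -0.07. In the same comparison 9 of 10 sinusoidal endothelial markers had a log2 fold change below 0, with a median of -0.49, 0 called in limma and 2 at an unadjusted p under 0.05; the part of endothelial RNA in the values of this list, which holds the endothelial ligand Bmp2, was not tested. Smad7, an inhibitory SMAD that BMP signals induce, was 2.32, 1.95 and 2.07 in the ND mice, 1.79, 1.38 and 1.44 in the HFD mice and 1.86, 1.03 and 1.60 in the PRF 50 mice. All HFD and PRF 50 livers lay below all ND livers for Smad7. Its log2 fold change was -0.58 with an SE of 0.15 in HFD compared with ND, where the limma adjusted p was 0.14. Between PRF 50 and HFD 0 of the 18 passed in limma, with 3 at an unadjusted p under 0.05, beside 20.2% of all genes tested, Smad1 and Spint2 higher and Hfe2 lower, and the list's median was 0.03; 1 passed without PRF 50 mouse 10.

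Between PRF 50 and ND 0 of the 18 passed the adjusted threshold in limma and 4 had an unadjusted p under 0.05, beside 12.5% of all genes tested, Smad9, Smad7 and Id1 lower and Fgl1 higher, with a median of -0.04; 1 passed without PRF 50 mouse 10. Id1, a transcriptional target of BMP signals, was 3.84, 3.35 and 4.13 in the ND mice, 3.43, 3.40 and 3.11 in the HFD mice and 3.58, 1.32 and 2.85 in the PRF 50 mice. PRF 50 mouse 9, the liver with the lowest Hamp, also had the lowest Id1 and Smad7 of all 9. Not all genes of the list were low in that liver. Its Acvr1 was the highest of all 9, at 2.56, and its Smad9 of 1.34 lay above every HFD liver. The part of this arm in its Hamp value was not tested. Id1 had a log2 fold change of -1.19 with an SE of 0.51 and a limma adjusted p of 0.40, and without PRF 50 mouse 9 it was -0.56. Fgl1, a hepatocyte-secreted protein and the most abundant gene of the list at 446 FPKM on average, was 7.66, 8.35 and 7.60 in the ND mice, 8.14, 8.37 and 7.62 in the HFD mice and 10.05, 10.23 and 7.84 in the PRF 50 mice. It had a log2 fold change of 1.50 with an SE of 0.59 and a limma adjusted p of 0.36, and PRF 50 mouse 10 lay within the ND range. Without that mouse it was 2.27 and passed the adjusted threshold. Without PRF 50 mouse 9 it was 1.07, and the limma adjusted p was up to 0.66 with a mouse left out.

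The inflammatory arm was followed in its signalling genes and in the acute-phase genes that respond to it. Of 13 genes of IL-6-STAT3 control, 9 were tested in HFD compared with ND, 10 in PRF 50 compared with HFD and 11 in PRF 50 compared with ND. Limma called 0 in each, and 1, 2 and 1 had an unadjusted p under 0.05, beside 15.1%, 20.2% and 12.5% of all genes tested, all with a higher level: Il6ra, then Jak1 and Socs3, then Il6ra. Without PRF 50 mouse 10, 1 passed in PRF 50 compared with HFD. The medians were 0.002, 0.18 and 0.20 in that order, and the most abundant gene, the transcription factor Creb3l3, ranged from 6.60 to 7.11 over the 9 livers.

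Among acute-phase genes, which encode plasma proteins that liver secretes in inflammation, Lcn2 and Serpina3n rose on the high-fat diet. All 19 listed genes were tested. In HFD compared with ND these 2 passed in limma, with 8 higher and 1 lower, Orm1, at an unadjusted p under 0.05, beside 15.1% of all genes tested, and a median of 0.30; 15 log2 fold changes were above 0 and 4 below. Lcn2, the siderophore-binding lipocalin, was 1.78, 2.87 and 1.74 in ND mice 6, 7 and 9, 4.92, 3.80 and 4.54 in HFD mice 1, 2 and 3, and 9.57, 7.39 and 2.17 in PRF 50 mice 3, 9 and 10. It rose by 2.29 on the log2 scale in HFD compared with ND with an SE of 0.36 and a limma adjusted p of 0.031. Serpina3n, a protease inhibitor, rose by 0.77 with an SE of 0.13 and a limma adjusted p of 0.038. The Lcn2 call was lost under 6 of 13 alternatives, among them leaving out HFD mouse 1 or 3 or ND mouse 6 or 9, with an adjusted p of up to 0.48, and the Serpina3n call under 8, among them each mouse left out, with an adjusted p of up to 0.25. The count of 2 was 1 without HFD mouse 2 or ND mouse 7 and 0 without any other mouse. Saa2, a serum amyloid A gene, had a log2 fold change of 1.38, an SE of 0.38 and a limma adjusted p of 0.15, and it was 0.92 without HFD mouse 1.

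For both PRF 50 comparisons limma called 0 of the 19 acute-phase genes, while 19 of 19 log2 fold changes were above 0. The median was 0.73 against HFD and 1.04 against ND, with 5 and 8 genes at an unadjusted p under 0.05, beside 20.2% and 12.5% of all genes tested. The summed FPKM of the list was 13895, 15421 and 12863 in ND mice 6, 7 and 9, 15948, 14203 and 11960 in HFD mice 1, 2 and 3, and 46804, 31855 and 14062 in PRF 50 mice 3, 9 and 10. PRF 50 mice 3 and 9 were above all other livers, PRF 50 mouse 10 was within the range of the rest, and the sums of the ND and HFD livers overlapped. Hpx, the heme carrier hemopexin, was the most abundant gene of the list on average at 3865 FPKM. Without PRF 50 mouse 10, 8 genes passed against HFD and 6 against ND. Saa1, a serum amyloid A gene, was 12.46, 11.52 and 6.73 in PRF 50 mice 3, 9 and 10 and between 6.49 and 8.43 in the other 6 livers. Its log2 fold change in PRF 50 compared with ND was 3.40 with an SE of 1.28, and Saa2, Saa4, Lcn2, Lrg1 and Serpina3n also had values more than 2-fold higher at an unadjusted p under 0.05 there, with 1.19 to 4.25 on the log2 scale. These values moved with single livers: Saa1 was 2.29 without PRF 50 mouse 3 and 5.15 without PRF 50 mouse 10, Lcn2 was 2.65 and 6.35, and the lowest with a mouse left out was 0.99 for Lrg1, 0.91 for Saa4 and 0.79 for Serpina3n, each less than 2-fold. Against HFD Lrg1, a secreted leucine-rich glycoprotein, was the 1 gene of that kind, at 1.06 with an SE of 0.44, or 0.70 without PRF 50 mouse 9 and 1.62 without PRF 50 mouse 10. Of the same livers, PRF 50 mouse 3 had the highest Hamp2 of all 9 and a Hamp of 11.31, between the others of its group, and PRF 50 mouse 9 had the lowest Hamp and the lowest Hamp2 of all 9; the part of the acute-phase values in either was not tested.

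**Figure D3:**
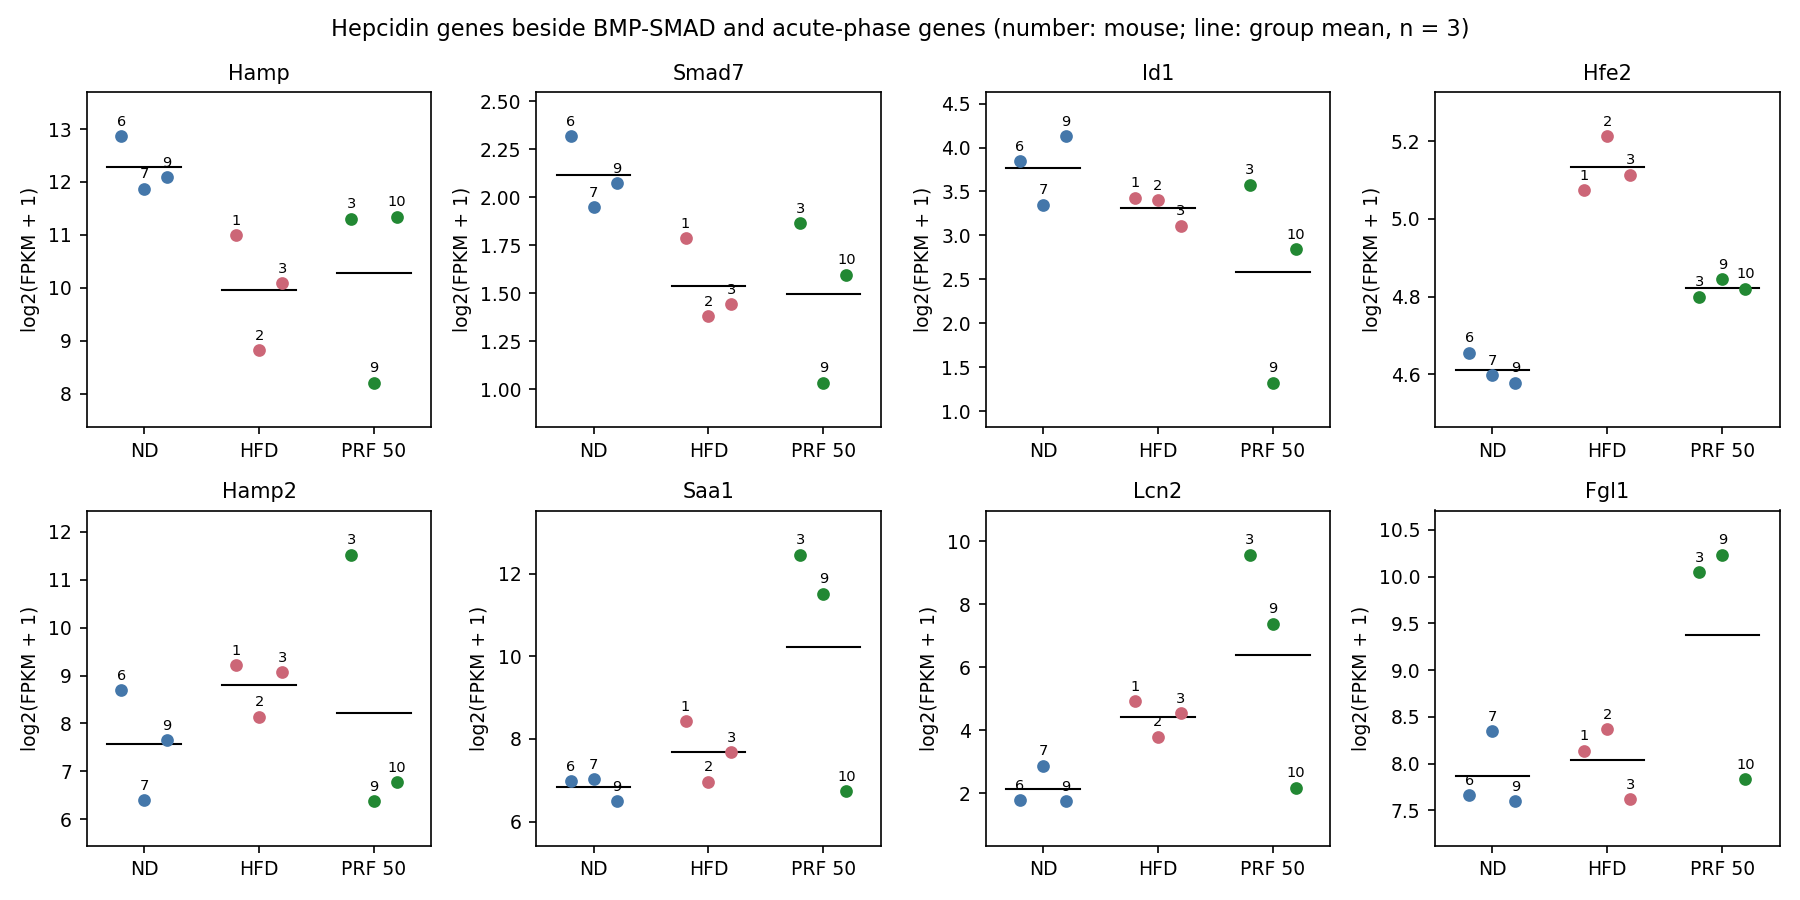
Level of Hamp, Hamp2 and 6 genes of the BMP-SMAD and acute-phase lists as log2(FPKM + 1) in each liver, with points labelled by mouse number and a line at the mean of 3 mice. Smad7 and Hamp are lower in all HFD and PRF 50 livers than in all ND livers, and Saa1, Lcn2 and Fgl1 are high in PRF 50 mice 3 and 9 and not in PRF 50 mouse 10.

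Routes of iron that do not use transferrin were examined in 12 genes, of which 7 or 8 were tested. Slc11a1, an iron transporter of the phagosome in macrophages, was 0.86, 1.40 and 1.50 in ND mice 6, 7 and 9, 1.12, 1.73 and 1.39 in HFD mice 1, 2 and 3, and 2.72, 2.49 and 2.17 in PRF 50 mice 3, 9 and 10. All PRF 50 livers lay above all others. It rose in PRF 50 compared with HFD by 1.05 on the log2 scale with an SE of 0.19 and a limma adjusted p of 0.037, a call lost without each of the HFD mice, without PRF 50 mouse 3 or 9 and with no minimum level, where the adjusted p reached up to 0.12. Compared with ND it was 1.21 higher in PRF 50 with an SE of 0.21 and a limma adjusted p of 0.069. Steap4, a metalloreductase, was 4.83, 4.89 and 4.94 in ND mice 6, 7 and 9, 5.41, 5.44 and 5.54 in HFD mice 1, 2 and 3, and 7.20, 6.76 and 5.22 in PRF 50 mice 3, 9 and 10. Every HFD and PRF 50 liver lay above every ND liver. It rose in HFD compared with ND by 0.57 with an SE of 0.09 and a limma adjusted p of 0.033, a call lost under 8 of 13 alternatives, each mouse left out among them, with up to 0.52. Its log2 fold change in PRF 50 compared with ND was 1.50 with an SE of 0.44 and a limma adjusted p of 0.22, and without PRF 50 mouse 10 it was 2.09 and passed the adjusted threshold. Without PRF 50 mouse 3 it was 1.10, and the limma adjusted p was up to 0.46 with a mouse left out. Cp, the ferroxidase ceruloplasmin, was the most abundant gene of the list at 352 FPKM on average. The list's median was 0.11 in HFD compared with ND and 0.30 in both PRF 50 comparisons, and limma called 1, 1 and 0 genes in HFD compared with ND, PRF 50 compared with HFD and PRF 50 compared with ND, the last with 3 at an unadjusted p under 0.05, Slc11a1, Steap4 and Cp, all higher. Without PRF 50 mouse 10 the count was 2 in PRF 50 compared with HFD and 1 in PRF 50 compared with ND, where it was also 1 with all 9 mice in 1 fit. Hephl1 was listed at 0 in all 9 livers.

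Genes of the IRP-IRE system and ferritin turnover, and of heme synthesis, had no call in limma in any comparison. Of 8 genes of the first list 7 were tested, and 1, 1 and 0 had an unadjusted p under 0.05 in HFD compared with ND, PRF 50 compared with HFD and PRF 50 compared with ND, Ncoa4 higher and Aco1 lower, with medians of 0.01, -0.15 and -0.07; Ftmt was listed at 0 in all 9 livers. Pcbp1, an iron chaperone that loads ferritin, was the most abundant at 83.9 FPKM. All 9 heme synthesis genes were tested, and 1, 1 and 2 had an unadjusted p under 0.05, Ppox, then Cpox, then Alas2 and Ppox, all lower, with medians of -0.01, -0.12 and -0.16. A total of 9 of 9 log2 fold changes of that list were below 0 in PRF 50 compared with HFD. Alas1, the rate-limiting enzyme of heme synthesis in liver and the most abundant of the list, was 8.29, 6.96 and 7.80 in ND mice 6, 7 and 9, 7.85, 7.30 and 7.56 in HFD mice 1, 2 and 3, and 6.42, 6.67 and 7.69 in PRF 50 mice 3, 9 and 10.

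In heme scavenging, transport and breakdown, 11 of 13 listed genes were in the tables and tested. Limma called 1 in PRF 50 compared with HFD, with 4 at an unadjusted p under 0.05, Cd163 and Lrp1 higher and Blvrb and Abcg2 lower. Limma called 0 in HFD compared with ND and in PRF 50 compared with ND, with Hp (1 gene), and Hmox1 and Blvrb (2 genes), at an unadjusted p under 0.05; 1 passed in the latter without ND mouse 9. The medians were 0.05 in HFD compared with ND, 0.30 in PRF 50 compared with HFD and 0.21 in PRF 50 compared with ND. Cd163, the macrophage receptor for hemoglobin bound to haptoglobin, was 0.98, 1.22 and 2.35 in ND mice 6, 7 and 9, 0.78, 1.25 and 1.06 in HFD mice 1, 2 and 3, and 2.42, 2.19 and 2.10 in PRF 50 mice 3, 9 and 10. The PRF 50 livers lay above the HFD livers, and ND mouse 9 lay within the PRF 50 range. Cd163 rose by 1.21 on the log2 scale in PRF 50 compared with HFD with an SE of 0.15 and a limma adjusted p of 0.015, a call lost without HFD mouse 3, without PRF 50 mouse 3 and with all 9 mice in 1 fit, with up to 0.061. Hmox1, the inducible heme oxygenase that frees iron from heme, was 2.70, 3.44 and 3.45 in ND mice 6, 7 and 9, 3.19, 4.12 and 3.79 in HFD mice 1, 2 and 3, and 6.20, 3.66 and 4.90 in PRF 50 mice 3, 9 and 10. Its log2 fold change in PRF 50 compared with ND was 1.72 with an SE of 0.56 and a limma adjusted p of 0.27, and it was 1.08 without PRF 50 mouse 3 and 2.36 without PRF 50 mouse 9. Hpx, the plasma heme carrier hemopexin and on average the most abundant gene of the list, ranged from 2294 to 11039 FPKM, highest in PRF 50 mouse 3.

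Mitochondrial iron and iron-sulfur cluster genes, 12 of 12 tested, had medians below 0 in both PRF 50 comparisons. Limma called 1 in PRF 50 compared with HFD, with 4 at an unadjusted p under 0.05, Iscu, Nfs1 and Glrx5 lower and Abcb10 higher, and 0 in the other comparisons, with 2 at an unadjusted p under 0.05 in each, Nfs1 and Abcb10 against ND in HFD and Slc25a37 and Glrx5 against ND in PRF 50. The medians were -0.003 in HFD compared with ND, -0.10 in PRF 50 compared with HFD and -0.15 in PRF 50 compared with ND. Glrx5, which passes iron-sulfur clusters on and was on average the most abundant of the list, with Fdx1 ahead of it in ND mouse 6 and all 3 PRF 50 livers, was 7.26, 6.74 and 6.78 in ND mice 6, 7 and 9, 7.02, 7.05 and 7.15 in HFD mice 1, 2 and 3, and 6.54, 6.59 and 6.51 in PRF 50 mice 3, 9 and 10. It fell by 0.53 on the log2 scale in PRF 50 compared with HFD with an SE of 0.08 and a limma adjusted p of 0.027. The call was lost without HFD mouse 2 or 3, without PRF 50 mouse 3 or 10, with all 9 mice in 1 fit and with quantile normalization, with an adjusted p of up to 0.098.

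Markers of macrophages were higher in the PRF 50 livers. Kupffer cells are the resident liver macrophages that recycle iron from red cells. All 12 markers listed for them were tested. Limma called 10 higher in PRF 50 compared with HFD, beside 1.43% of all genes tested, with a median log2 fold change of 1.43. Whether resident macrophages alone gave these values was not tested. Timd4, a receptor of resident macrophages, rose by 1.49 with an SE of 0.19 and a limma adjusted p of 0.015, and Clec4f, a lectin of Kupffer cells, by 1.38 with an SE of 0.25 and a limma adjusted p of 0.034. The Timd4 call was lost under 2 of 12 alternatives, without HFD mouse 3 or PRF 50 mouse 3, with an adjusted p of up to 0.056, and the Clec4f call under 7 of 13, among them without any mouse but HFD mouse 1, with up to 0.095. The other 8 were Vsig4, Cd5l, Cd163, Adgre1, C1qa, C1qb, C1qc and Csf1r, and Marco and Folr2 had a fold change above 2 without passing the adjusted threshold. Summed over the list, FPKM was 96.6, 181 and 229 in ND mice 6, 7 and 9, 113, 184 and 184 in HFD mice 1, 2 and 3, and 622, 390 and 409 in PRF 50 mice 3, 9 and 10. Every PRF 50 liver was above every other liver, no marker was at 0, and Cd5l, a secreted macrophage protein, was the most abundant except in HFD mouse 1, where C1qb was. Between HFD and ND limma called 0, and 0 had an unadjusted p under 0.05, with a median of -0.04. Between PRF 50 and ND limma called 0, and 11 were more than 2-fold higher at an unadjusted p under 0.05, beside 1.76% of all genes tested with such a change in either direction, with a median of 1.34. Of these 11, Clec4f (0.89), Timd4 (0.99), C1qc (0.96), Csf1r (0.99) and Folr2 (0.68) were less than 2-fold higher without ND mouse 6. The adjusted threshold was passed by 3 markers without ND mouse 9, 1 without PRF 50 mouse 9 and 3 with all 9 mice in 1 fit. The 10 calls became 2 without HFD mouse 2, 0 without HFD mouse 3, 1 without PRF 50 mouse 3, 6 without PRF 50 mouse 10, 6 with all 9 mice in 1 fit and 3 with no minimum level. Slc40a1, Slc11a1, Cd163 and Hmox1 are expressed in these cells, and Cd163 is itself 1 of the 12 markers. The part of Kupffer cell RNA in the values of these genes was not tested.

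**Figure D4:**
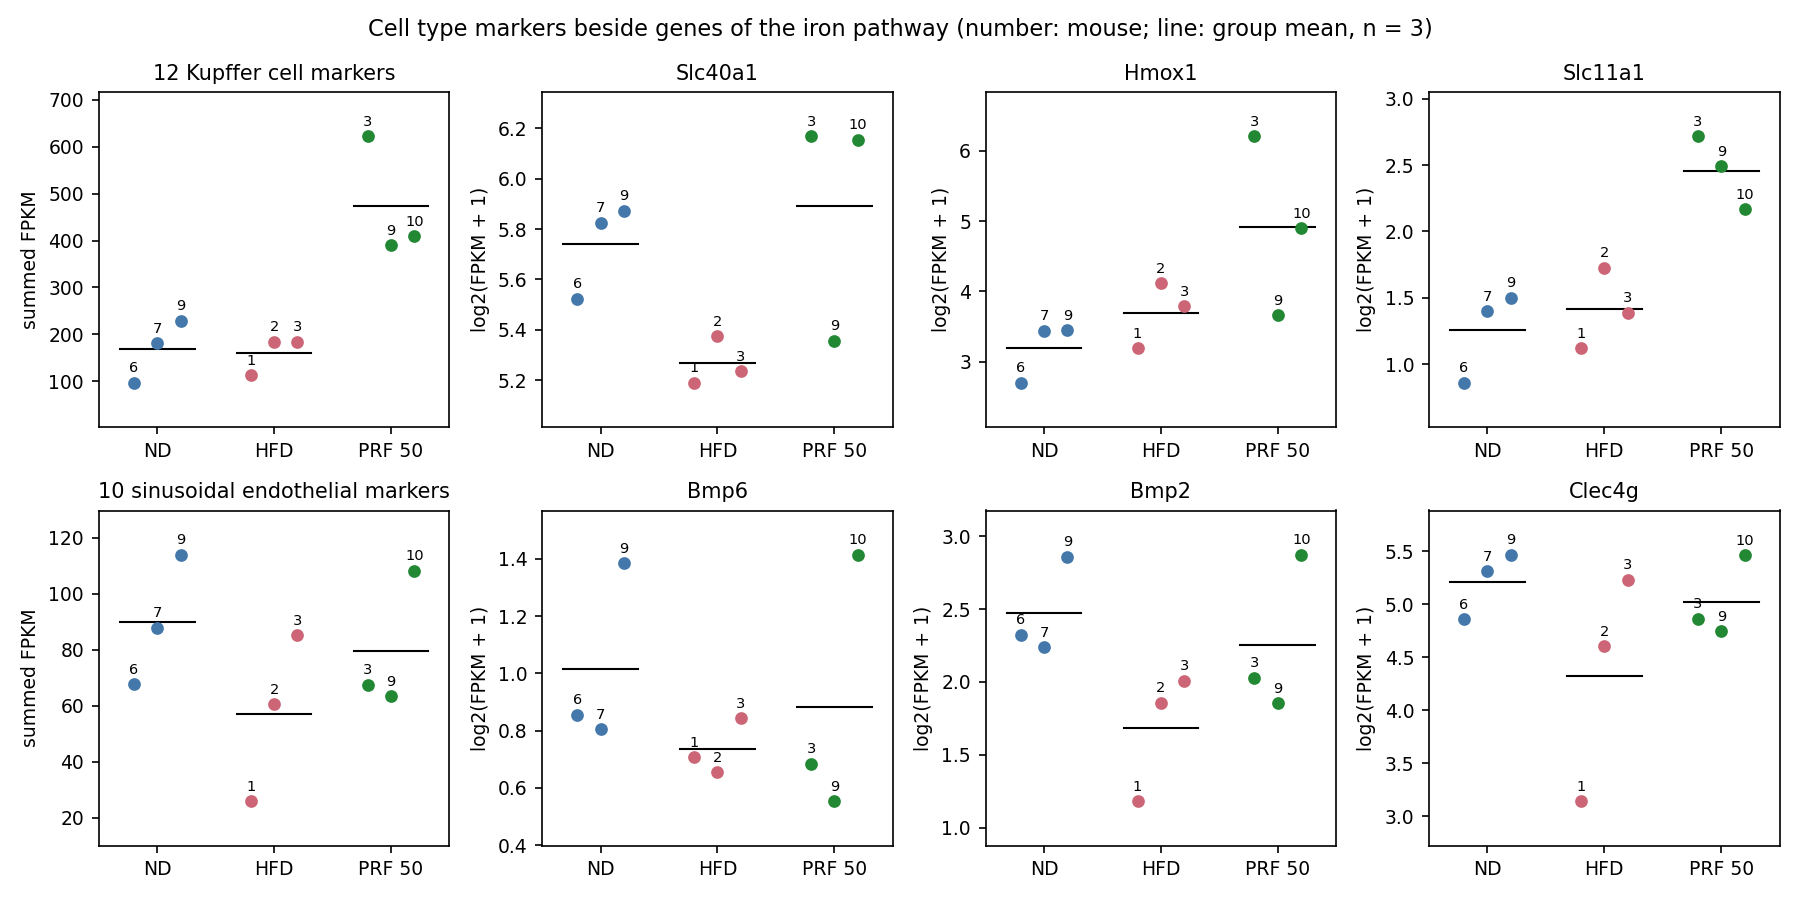
Summed FPKM of 12 Kupffer cell markers and of 10 sinusoidal endothelial markers, beside Slc40a1, Hmox1, Slc11a1, Bmp6, Bmp2 and Clec4g as log2(FPKM + 1), in each liver, with points labelled by mouse number and a line at the mean of 3 mice. The Kupffer sum is 390 to 622 in PRF 50 and at most 229 elsewhere, and Bmp6 is highest in ND mouse 9 and PRF 50 mouse 10.

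Markers of other cells were counted in the same way. Limma called 0 of 10 sinusoidal endothelial markers in each comparison, with 2, 1 and 0 at an unadjusted p under 0.05 in HFD compared with ND, PRF 50 compared with HFD and PRF 50 compared with ND, Kdr and Oit3 lower and Cdh5 higher, and medians of -0.49, 0.43 and -0.17. Of 11 erythroid markers 8 were in the tables and 6 tested, and limma called 0 in each comparison, with 0, 0 and 2 at an unadjusted p under 0.05, Alas2 lower and Hbb-b1 higher, and medians of -0.10, 0.13 and 0.08; Hbb-b1, a beta globin gene, led at 128 to 362 FPKM, highest in HFD mouse 3. Of 8 stellate cell markers, led by Dcn, 7 or 8 were tested with 0 called in limma, 2, 2 and 0 at an unadjusted p under 0.05, Col1a1 and Col3a1 higher and then the same genes lower, and medians of 0.23, 0.12 and 0.43; 1 passed in HFD compared with ND without HFD mouse 1 or ND mouse 9, or with all 9 mice in 1 fit. Blood cells and bile duct cells gave few testable genes. Of 8 neutrophil and monocyte markers 2 or 3 were tested and limma called 0, with 0, 2 and 1 at an unadjusted p under 0.05, S100a9 and Ly6c2 and then Ly6c2, all higher, and medians of -0.36, 1.49 and 0.97; 1 passed in HFD compared with ND without ND mouse 6 and in PRF 50 compared with HFD without PRF 50 mouse 10. S100a9, a calcium-binding protein of neutrophils, was 1.17, 2.74 and 2.23 in ND mice 6, 7 and 9, 1.40, 1.11 and 1.23 in HFD mice 1, 2 and 3, and 4.56, 3.05 and 1.43 in PRF 50 mice 3, 9 and 10. In PRF 50 compared with HFD it had a log2 fold change of 1.77 with an SE of 0.67 and a limma adjusted p of 0.20, or 0.99 without PRF 50 mouse 3 and 2.56 without PRF 50 mouse 10, where it passed the adjusted threshold; S100a8 was the most abundant of that list on average. Of 5 cholangiocyte markers, led by Spp1, 1 or 2 were tested and limma called 0, with 0, 0 and 1 at an unadjusted p under 0.05 and medians of 0.16, 0.29 and 0.16. None of 7 lymphocyte markers, led on average by Nkg7 at 0.775 FPKM, reached the minimum for testing.

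Hepatocytes make hepcidin and transferrin, and among their markers Cyp3a11 was the 1 gene called. Of 10 markers 9 were tested, with Alb not among them, and their medians were -0.08 in HFD compared with ND, 0.35 in PRF 50 compared with HFD and -0.02 in PRF 50 compared with ND. Cyp3a11, a drug-metabolising cytochrome P450, was 11.78, 11.70 and 11.30 in ND mice 6, 7 and 9, 9.12, 8.81 and 9.04 in HFD mice 1, 2 and 3, and 7.60, 6.51 and 8.07 in PRF 50 mice 3, 9 and 10. It fell by 2.60 on the log2 scale in HFD compared with ND with an SE of 0.18 and a limma adjusted p of 0.0012, where 1 of the 9 was called, 2 without HFD mouse 1, and 2 had an unadjusted p under 0.05, Cps1 and Cyp3a11. It fell by 4.20 in PRF 50 compared with ND with an SE of 0.37 and a limma adjusted p of 0.0068, a call lost without ND mouse 7, at up to 0.068. Its log2 fold change in PRF 50 compared with HFD was -1.60 with an SE of 0.36 and a limma adjusted p of 0.061. Limma called 0 of the 9 there, with 2 at an unadjusted p under 0.05, Ttr and Cyp3a11, both lower; 1 passed without PRF 50 mouse 9 or 10, with all 9 mice in 1 fit, with quantile normalization or without a mean-variance trend, and 2 with a minimum of 10 FPKM. Summed FPKM of the hepatocyte list was 18375 to 29759 over the 9 livers, highest in ND mouse 6, which also had the highest Hamp, Fth1 and Ftl1; its part in those values was not tested.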

How the data were processed

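Values were taken from 9 tables of liver RNA-seq, 1 per mouse, with mice assigned to groups by the sample labels. Poly(A) RNA libraries had been sequenced, and reads had been trimmed with FASTX_Trimmer and BBMap and mapped with TopHat; TopHat and build mm10 are named in the submitters' processing notes, and versions and the annotation are not given in the sources used here. The authors deposited log2 values of FPKM from Cufflinks after a geometric normalization between mice; the pseudocount of 1 was inferred from a lowest value of 0. FPKM was computed back from these values.

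Each comparison used limma 3.58.1 in R 4.3.3 (eBayes with a trend, two-sided) on its 6 mice and all genes averaging 1 FPKM or more, with Benjamini-Hochberg adjustment; changes of more than 2-fold at an unadjusted p under 0.05 were counted beside it. Tables and figures were made with Python 3.11.15, pandas 2.3.3, numpy 2.4.6 and matplotlib 3.10.9. All 10 members were named; of 16 other lists, 8 of pathways and 8 of cell type markers, genes were named that passed either criterion in any comparison, and the most abundant gene of each list. Genes named only for an unadjusted p under 0.05, and Bmp2 in a figure, were chosen after their values were seen. For Hamp and Hamp2 the 5 genes with the highest r were named. Members and lists were chosen with earlier results of these data known. Some lists share genes, so their counts are not separate results. Among these genes are Cd163 in the heme scavenging and Kupffer cell lists and Alas2 in the heme synthesis and erythroid lists. Hp and Hpx stand in the heme scavenging and acute-phase lists, and Cp in the non-transferrin iron and acute-phase lists. Positions are from GENCODE on GRCm38 and promoters from RefSeq on GRCm38.p6. Alternatives were leaving out each mouse, all 9 mice in 1 fit, Hamp and Hamp2 summed, eBayes without a trend, quantile normalization, median-of-ratios scaling, a pseudocount of 0.1, and a minimum of 10 FPKM or none.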

Additional observations from a re-analysis of the deposited data

How the results depend on the processing

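Of 351 values of the log2 fold changes of the 9 tested members under the alternatives, 332 kept their direction and their side of the threshold, 5 passed an adjusted p under 0.05 in limma that had not, and 14 reversed. The reversals, all of differences that did not pass the threshold, were in PRF 50 compared with HFD for Hamp without HFD mouse 2 (-0.25), PRF 50 mouse 3 (-0.19) or PRF 50 mouse 10 (-0.21), over a range of -0.25 to 1.36 with each mouse left out, for Hamp2 without PRF 50 mouse 9 (0.33) or 10 (0.14), over -2.24 to 0.33, and for Hfe without HFD mouse 1 (-0.034), HFD mouse 3 (-0.0064) or PRF 50 mouse 9 (-0.055), over -0.055 to 0.065. In HFD compared with ND they were Fth1 without ND mouse 9 (-0.037), over -0.037 to 0.28, and Ftl1 without ND mouse 6 (0.085), over -0.26 to 0.085, and with quantile normalization (0.0072). In PRF 50 compared with ND they were Hamp2 without PRF 50 mouse 3 (-1.01), over -1.01 to 1.56, and Tfrc without PRF 50 mouse 3 (-0.08) or 9 (-0.10), over -0.10 to 0.35. Bmp6, not among these, changed sign in PRF 50 compared with HFD without PRF 50 mouse 10 (-0.12) and in PRF 50 compared with ND without PRF 50 mouse 9 (0.034) or ND mouse 9 (0.0535). The cause was not tested.

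The count of members past the adjusted threshold, 0 in each comparison in limma with 3, 4 and 1 at an unadjusted p under 0.05 in HFD compared with ND, PRF 50 compared with HFD and PRF 50 compared with ND, ranged from 0 to 1 with each mouse left out in the first and second and was 0 throughout in the last. In PRF 50 compared with HFD it was 1 with a minimum of 10 FPKM, where fewer genes are tested, and 2 without a trend. Over all genes, the count at an adjusted p under 0.05 ranged with each mouse left out from 15 to 242 in PRF 50 compared with HFD, from 35 to 140 in HFD compared with ND and from 4 to 71 in PRF 50 compared with ND, where the fits hold fewer samples. With no minimum level it was 126, 37 and 11 in that order, and with all 9 mice in 1 fit it was 107 in PRF 50 compared with ND. With a minimum of 10 FPKM the balance of directions moved to 49 higher and 203 lower in PRF 50 compared with HFD and to 8 higher and 37 lower in PRF 50 compared with ND. The count of genes changed by more than 2-fold at an unadjusted p under 0.05 was 372, 216 and 289 with a pseudocount of 0.1 and 106, 68 and 97 with a minimum of 10 FPKM, in the same order; 168 to 253, 111 to 164 and 131 to 239 genes met it with each mouse left out. Of 599 values of the other named genes, 483 kept their side of the threshold, 95 lost the call, 21 gained it and 0 reversed. No paired analysis was made, because the groups hold different mice and no label pairs mice across groups. The sum of Ftl1 and Ftl1-ps1 was not run, since the latter has no row in the tables used here. Depth is known only in relative terms.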
